A study of Mus musculus with 6 samples.

Results

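Transcripts of p53 and of genes that p53 activates were followed in livers of ethanol-exposed mice with and without Cd44. The set holds 10 genes: Trp53, which encodes p53 itself, and the targets Mdm2, Ccng1, Cdkn1a, Btg2, Gadd45a, Bax, Bbc3, Phlda3 and Gdf15. They were taken by name from the 54532 rows of the count table that carry an Ensembl gene identifier, through the annotation of the same genome build, GRCm38, and each matched 1 row. All 10 passed the filter on low counts, so the set was tested in full among 14145 genes.

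Poly(A) RNA was sequenced from the livers of 3 Cd44 KO mice and 3 wild-type mice, 1 library per mouse. The Cd44 KO mice were Cd44-deficient animals of the B6 strain that carries the Cd44tm1Hbg allele, and no Cre or cell type restricts that allele. The labels used here name no strain for the wild-type mice and give no age or sex. Both genotypes drank the ethanol form of the Lieber-DeCarli diet, at 5% by volume, over 10 days, were gavaged once on day 11 with 5 g/kg ethanol and were killed 9 hours later. All groups thus share the ethanol exposure, and livers without it were not analysed here.

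The transcription factor p53 is kept low in unstressed cells by MDM2, a ubiquitin ligase that marks it for degradation and that p53 itself induces. After DNA damage and other stress p53 protein is stabilised, mostly without a change of its mRNA, and it induces genes that halt the cell cycle, repair DNA or trigger cell death. In liver the pathway is known for its part in hepatocyte arrest and death during toxic injury. Several of its targets are also induced by other stress factors, Gdf15 and Gadd45a by the ATF4 branch of the integrated stress response among them.

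The p53 protein binds DNA at response elements made of a pair of half-sites, each of 10 bases. The half-sites found in the 300-base windows around the annotated starts of these genes (250 bases before and 50 after, RefSeq sequences, GRCm38.p6) are shown because they differ between the members whose levels are compared below. Each is given 5′ to 3′ on the strand of its gene with its flanks, and capitals mark the bases that match the half-site pattern on either strand.
Trp53: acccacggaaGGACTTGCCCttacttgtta
Mdm2: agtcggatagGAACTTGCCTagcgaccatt
Ccng1: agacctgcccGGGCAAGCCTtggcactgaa
Cdkn1a, first site: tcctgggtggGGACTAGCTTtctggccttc
Cdkn1a, second site: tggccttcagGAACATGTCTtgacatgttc
Gadd45a: ggttggctgaGGGCTAGCCCcatatctccg
Bax: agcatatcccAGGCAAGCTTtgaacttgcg

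The windows of 6 of the 10 genes held a half-site (6 of their 14 windows). So did those of 6 of the 21 other p53 targets with a window in the RefSeq table (7 of their 30 windows). Of all 32851 windows, 8.36% held one. In Cdkn1a and Ccng1 the half-site lay directly beside a second stretch of 10 bases with only 1 letter outside the pattern, an arrangement found in 0.0883% of all windows. The Cdkn1a window surrounds the upstream of its 2 annotated starts (chr17:29090729-29091028, plus strand); its second site begins 51 bases before that start and is followed by the near-match tgacatgttc. The full window was:
Cdkn1a: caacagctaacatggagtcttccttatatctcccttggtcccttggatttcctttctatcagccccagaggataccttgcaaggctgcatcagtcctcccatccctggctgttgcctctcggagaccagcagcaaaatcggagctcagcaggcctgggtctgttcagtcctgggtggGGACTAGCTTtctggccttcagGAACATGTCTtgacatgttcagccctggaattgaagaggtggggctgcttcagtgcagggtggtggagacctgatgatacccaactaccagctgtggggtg

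The Ccng1 window (chr11:40755237-40755536, minus strand) has its half-site 185 bases before the start, preceded by the near-match agacctgccc. Its full sequence was:
Ccng1: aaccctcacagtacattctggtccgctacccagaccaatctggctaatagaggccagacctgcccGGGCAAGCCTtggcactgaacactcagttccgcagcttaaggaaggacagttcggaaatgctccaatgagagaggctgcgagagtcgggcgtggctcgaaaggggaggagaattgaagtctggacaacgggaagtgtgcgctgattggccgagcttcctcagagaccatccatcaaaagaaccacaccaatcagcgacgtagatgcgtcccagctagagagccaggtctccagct

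No half-site was found in the windows of Btg2, Bbc3, Phlda3 and Gdf15, which says only that these letters are absent from these windows. The 6-letter motif CATGTC, which the second Cdkn1a site contains, was present on either strand for 2 of the 10 genes (2 of their 14 windows) and in 10.1% of all windows. GGGCGG was present for 7 of the 10 genes (9 of the 14 windows) and in 35.7% of all windows. TATAAA was present for 1 gene (1 window) and in 13.6% of all windows, and CACGTG for 4 genes (4 windows) and in 7.15%. A match is a description of the sequence, and binding was not measured.

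Reads assigned to identified genes came to between 15429784 and 19293777 per library. Levels are CPM, the count divided by the library size and scaled to a common depth, here scaled to the TMM-normalised library size, and fold changes are Cd44 KO over wild-type on the log2 scale from edgeR's quasi-likelihood test, with their standard error and p adjusted over all 14145 genes. Cd44 had 1, 0 and 0 counts in Cd44 KO mice 1, 2 and 3, against 590, 175 and 568 in wild-type mice 1, 2 and 3, so no library went against its label. Cd44 was called lower (adjusted p = 0.00647), a call lost without any 1 of the 3 Cd44 KO libraries (adjusted p = 0.331, 0.0977 and 0.158). The 6 hepatocyte markers and transferrin summed to between 87059 and 108915 CPM in Cd44 KO livers and to between 79339 and 97977 CPM in wild-type livers, so the defining markers of the labelled tissue were present. The library of wild-type mouse 3 stood apart from the rest: its pairings with other libraries gave a chi-square per gene of 84.1 to 116, where all other pairs gave 22.6 to 48.3. Some fold changes are also given without it.

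None of the 10 genes differed between genotypes past the threshold. At an adjusted p under 0.05, edgeR called 0 of 10, where 0.0141% of all genes were called. DESeq2, which called 2.33% of all genes, and limma-voom also called 0 of 10. At an unadjusted p under 0.05 edgeR gave 1 of 10, Bax, which was lower, where 12.8% of all genes were past that limit and 7.59% were lower past it. The 3 Cd44 KO values and the 3 wild-type values overlapped for all 10 genes, where 18.2% of all genes tested had groups that did not overlap. The median log2 fold change of the 10 genes was −0.16, against −0.0075 over all genes tested; 7 had a lower mean and 3 a higher mean in Cd44 KO livers. How small a difference these mice could resolve varied between the genes, as the intervals below show.

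**Figure D1:**
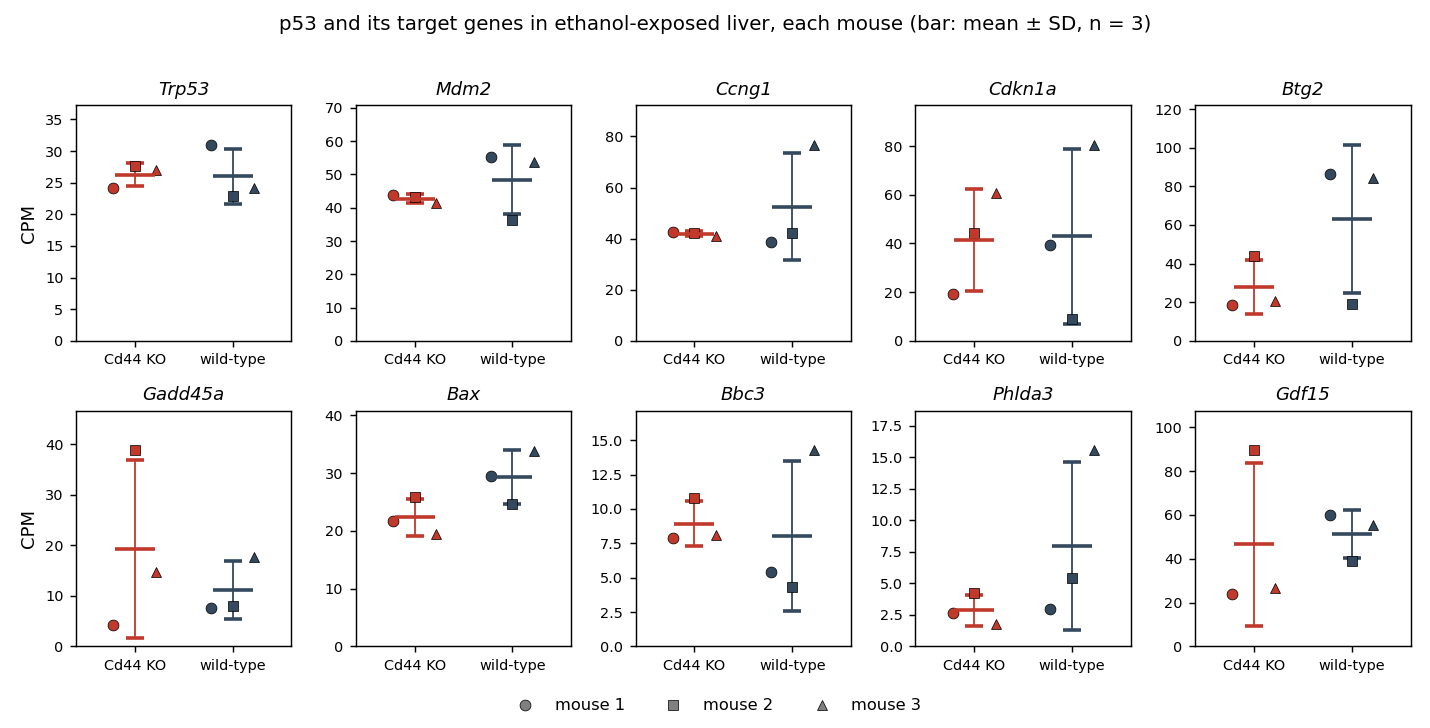
Level of each of the 10 genes (CPM, vertical axes from 0) in Cd44 KO (red) and wild-type (dark) livers; symbols mark mouse 1, 2 and 3, and bars the mean ± SD of 3 mice. The genotypes overlap in every panel, and the spread is narrow for Trp53, Mdm2 and Bax and wide for Cdkn1a, Btg2, Gadd45a, Phlda3 and Gdf15.

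Trp53, the transcription factor, was level across the 6 livers. Trp53 (ENSMUSG00000059552; chromosome 11, 69580359 to 69591873, plus strand) had 24.2, 27.7 and 26.9 CPM in Cd44 KO mice 1, 2 and 3, against 31.0, 22.8 and 24.2 CPM in wild-type mice 1, 2 and 3. Both the highest and the lowest value belonged to wild-type mice, and the Cd44 KO mice lay between them. The means were 26.3 ± 1.86 CPM in Cd44 KO and 26.0 ± 4.37 CPM in wild-type livers (SD, n = 3 each), with a log2 fold change of 0.01 ± 0.15 and a 95% interval of −0.33 to 0.36 (adjusted p = 0.982). Changes of the transcript larger than those bounds lie outside the interval; p53 protein was not measured.

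The feedback inhibitors of p53 showed small differences that did not pass the test. Mdm2 (ENSMUSG00000020184; chromosome 10, 117688875 to 117710758, minus strand), the ubiquitin ligase, had 43.7, 43.2 and 41.3 CPM in the Cd44 KO mice, against 55.2, 36.4 and 53.8 CPM in the wild-type mice. Cd44 KO values were within 1.06-fold of each other and lay between wild-type mouse 2 below and wild-type mice 1 and 3 above. Its log2 fold change was −0.18 ± 0.17, with an interval of −0.57 to 0.20 (adjusted p = 0.717). Ccng1 (ENSMUSG00000020326; chromosome 11, 40748552 to 40755311, minus strand) encodes cyclin G1, which recruits a phosphatase to MDM2 and so aids p53 turnover. It had 42.8, 42.1 and 40.9 CPM in Cd44 KO livers, against 38.7, 42.1 and 76.8 CPM in wild-type livers. All mice but wild-type 3 lay in a narrow band, and that mouse stood well above it. For Ccng1 a log2 fold change of −0.33 ± 0.25 (adjusted p = 0.656) became 0.05 without wild-type mouse 3.

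The cell cycle targets varied among mice of one genotype by more than the genotype means differed. Cdkn1a (ENSMUSG00000023067; chromosome 17, 29090976 to 29100727, plus strand) encodes p21, the inhibitor of cyclin-dependent kinases through which p53 stops cells before S phase. It had 19.1, 44.2 and 60.7 CPM in Cd44 KO mice 1, 2 and 3, against 39.5, 8.94 and 80.6 CPM in wild-type mice 1, 2 and 3. The lowest and the highest of the 6 livers were both wild-type, 9.01-fold apart, and the Cd44 KO mice spanned 3.18-fold. Means were 41.3 ± 20.96 CPM in Cd44 KO and 43.0 ± 35.9 CPM in wild-type livers (SD, n = 3 each). The log2 fold change was −0.06 ± 0.76 with an interval of −1.90 to 1.78 (adjusted p = 0.986), an interval that holds severalfold differences in both directions. It was 0.76 without wild-type mouse 3.

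Btg2 (ENSMUSG00000020423; chromosome 1, 134075170 to 134079120, minus strand) encodes an antiproliferative cofactor of mRNA deadenylation. Btg2 had 18.7, 43.9 and 20.7 CPM in Cd44 KO livers, against 86.2, 18.9 and 84.5 CPM in wild-type livers. Wild-type mice 1 and 3 were about level with each other and above all Cd44 KO mice, while wild-type mouse 2 lay with Cd44 KO mice 1 and 3. The log2 fold change was −1.18 ± 0.60 with an interval of −2.62 to 0.25 (adjusted p = 0.481), and it stayed negative without each of the 6 mice in turn, between −1.68 and −0.90. Without wild-type mouse 2 the adjusted p was 0.117, the smallest for Btg2 among the alternatives run.

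Gadd45a (ENSMUSG00000036390; chromosome 6, 67035096 to 67037457, minus strand), a stress sensor in arrest and DNA repair, had 4.32, 38.8 and 14.7 CPM in Cd44 KO livers, against 7.61, 7.96 and 17.7 CPM in wild-type livers. Cd44 KO mouse 2 was the highest and Cd44 KO mouse 1 the lowest of the 6, 8.99-fold apart. For Gadd45a a log2 fold change of 0.80 ± 0.74 (adjusted p = 0.728) became −0.23 without Cd44 KO mouse 2. The annotated exons of Gadd45a share 337 bases with a noncoding gene on the other strand, which had 79 counts over the 6 libraries against 1663 for Gadd45a.

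Of the cell death targets, Bax had the smallest unadjusted p and Phlda3 the largest difference. Bax (ENSMUSG00000003873; chromosome 7, 45461697 to 45466898, minus strand), which permeabilises the outer mitochondrial membrane, had 21.8, 25.8 and 19.4 CPM in Cd44 KO livers, against 29.4, 24.6 and 33.9 CPM in wild-type livers. The groups overlapped through a single pair, Cd44 KO mouse 2 above wild-type mouse 2. Bax gave a log2 fold change of −0.39 ± 0.17 with an interval of −0.77 to −0.011, an unadjusted p of 0.0450 in edgeR and an adjusted p of 0.377. It was negative without each mouse in turn, between −0.51 and −0.27.

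Bbc3 (ENSMUSG00000002083; chromosome 7, 16308393 to 16318205, plus strand) encodes PUMA, a BH3-only protein that frees BAX from its inhibitors. Bbc3 had 7.90, 10.8 and 8.09 CPM in Cd44 KO livers, against 5.44, 4.31 and 14.3 CPM in wild-type livers. Cd44 KO mice lay between wild-type mice 1 and 2 below and wild-type mouse 3 above. Bbc3 gave a log2 fold change of 0.15 ± 0.43 (adjusted p = 0.923), and 0.88 without wild-type mouse 3. Phlda3 (ENSMUSG00000041801; chromosome 1, 135766119 to 135769136, plus strand), a PH-domain protein that holds AKT off the membrane, had 2.66, 4.21 and 1.78 CPM in Cd44 KO livers, against 2.99, 5.42 and 15.5 CPM in wild-type livers. Wild-type mouse 3 was the only liver far above the others. For Phlda3 a log2 fold change of −1.45 ± 0.63 (unadjusted p = 0.0536 and adjusted p = 0.398 in edgeR) became −0.49 without wild-type mouse 3.

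Gdf15 (ENSMUSG00000038508; chromosome 8, 70629393 to 70632456, minus strand), the secreted member of the set, is a stress hormone of the TGF-beta superfamily that lowers appetite. It had 23.8, 89.5 and 26.7 CPM in Cd44 KO livers, against 59.8, 38.9 and 55.3 CPM in wild-type livers. The 3 wild-type mice lay between Cd44 KO mice 1 and 3 below and Cd44 KO mouse 2 above. Gdf15 gave a log2 fold change of −0.14 ± 0.52 (adjusted p = 0.947), and −1.02 without Cd44 KO mouse 2, where the adjusted p was 0.361.

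**Figure D2:**
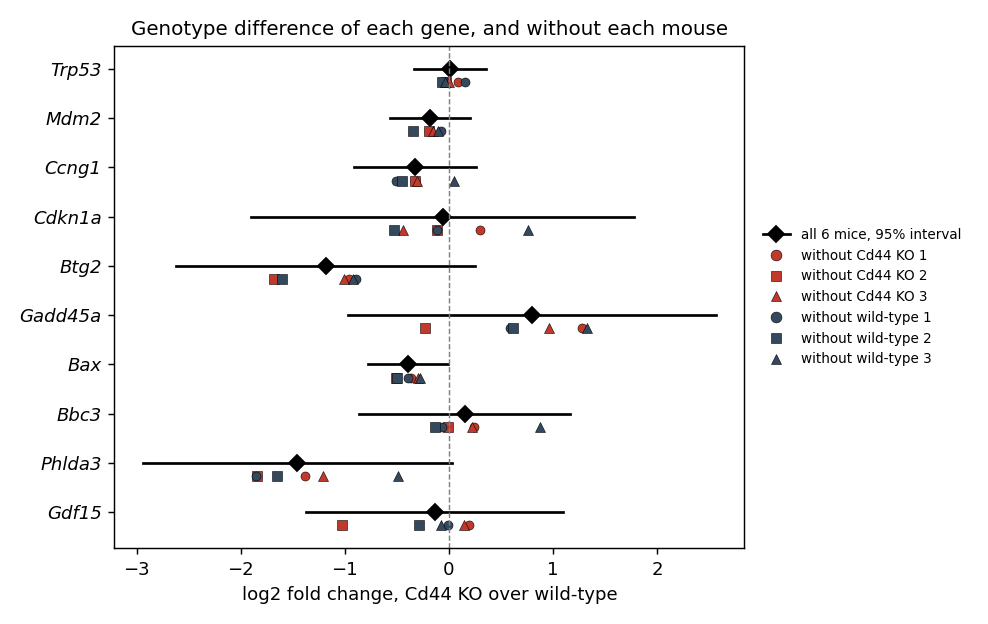
Log2 fold change, Cd44 KO over wild-type, of each gene (black diamonds, with 95% intervals from edgeR) and the same value without each mouse in turn (coloured symbols). Cdkn1a runs from −0.53 to 0.76 and Gadd45a from −0.23 to 1.33 as single mice are left out, while Mdm2, Btg2, Bax and Phlda3 keep a negative value throughout.

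Per kilobase of annotated exon, the scale on which genes can be compared, Gdf15 had the highest mean of the 10 in both genotypes, although it lay within its spread of the next gene in each. Its mean level was 25.2 ± 20.1 CPM per kilobase in Cd44 KO and 27.7 ± 5.94 in wild-type livers (SD, n = 3 each, here and below). In Cd44 KO livers Bax followed at 14.2 ± 2.05 CPM per kilobase, then Ccng1 at 11.9 ± 0.263, Cdkn1a at 11.6 ± 5.90, Gadd45a at 10.9 ± 10.0 and Btg2 at 10.1 ± 5.12. The last 4 of these did not differ beyond their spread. Mdm2 at 8.41 ± 0.255, Trp53 at 6.49 ± 0.460, Bbc3 at 4.21 ± 0.769 and Phlda3 at 1.85 ± 0.788 CPM per kilobase came lower in Cd44 KO livers, each separated from the next by more than its SD. In wild-type livers the order after Gdf15 was Btg2 at 23.0 ± 14.0, Bax at 18.6 ± 2.94, Ccng1 at 15.0 ± 5.999 and Cdkn1a at 12.1 ± 10.1 CPM per kilobase, neighbours that lay within their spread. Below them in wild-type livers stood Mdm2 at 9.54 ± 2.06, Trp53 at 6.43 ± 1.08, Gadd45a at 6.29 ± 3.26, Phlda3 at 5.12 ± 4.27 and Bbc3 at 3.77 ± 2.57 CPM per kilobase. Btg2 differed most in its place in the order, and its wild-type SD was wide.

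The genes differed widely in their spread within genotypes. The within-genotype SD of the log2 level was 0.18 for Trp53, 0.22 for Bax and 0.24 for Mdm2, all 3 below the median of 0.25 over all genes tested, and 0.38 for Ccng1. For the other 6 genes it was above the 90th percentile of all genes tested, from 0.66 for Bbc3 and 0.78 for Gdf15 to 0.94 for Phlda3, 1.00 for Btg2, 1.21 for Gadd45a and 1.29 for Cdkn1a. Genes with few counts carry more counting error on this scale, which touches Phlda3 with 26 to 84 counts in Cd44 KO mice more than Cdkn1a with 287 to 885.

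Several targets shared their highest or lowest mouse. Wild-type mouse 3 was the highest of the 6 livers for 5 of the 10 genes (Ccng1, Cdkn1a, Bax, Bbc3 and Phlda3) and for 15 of the 29 other p53 targets tested, while it was the highest for 23.6% of all genes tested. Relative to each gene's mean over the 6 livers, the median log2 level of the 10 genes was −0.42, 0.18 and −0.14 in Cd44 KO mice 1, 2 and 3, and 0.22, −0.25 and 0.66 in wild-type mice 1, 2 and 3. The 2 ranges overlapped, with wild-type mouse 2 between Cd44 KO mice 1 and 3. Cd44 KO mouse 2 was the highest liver for 2 genes, Gadd45a and Gdf15, and for 11.3% of all genes tested. Wild-type mouse 1 was the highest for 3 (Trp53, Mdm2 and Btg2) and for 18.3% of all genes. Cd44 KO mouse 1 was the lowest for 3 (Btg2, Gadd45a and Gdf15) and for 12.4% of all genes. Wild-type mouse 2 was the lowest for 4 (Trp53, Mdm2, Cdkn1a and Bbc3) and for 17.9% of all genes. The median log2 fold change of the 10 genes was −0.056 without wild-type mouse 3 and −0.052 without Cd44 KO mouse 1. It was −0.40 without wild-type mouse 2.

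**Figure D3:**
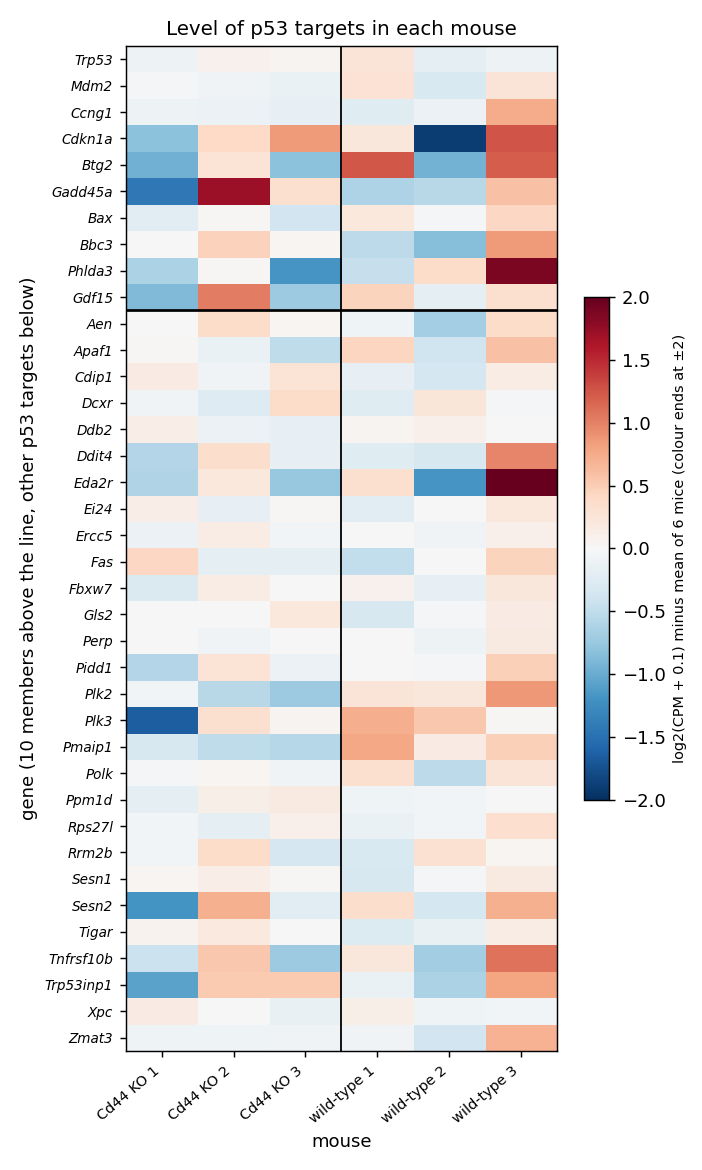
Level of the 10 genes (above the line) and of other p53 targets tested (below) in each mouse, as log2(CPM + 0.1) minus the mean of the 6 mice; red is above that mean and blue below, with colours ending at ±2. The column of wild-type mouse 3 is red for Cdkn1a, Btg2, Phlda3 and Eda2r, and the 3 Cd44 KO columns are blue together for Pmaip1. For Plk2 the 3 Cd44 KO mice are also below the mean, Cd44 KO mouse 1 only slightly.

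Most other p53 targets overlapped between genotypes as well, and 3 were lower in every Cd44 KO mouse than in any wild-type mouse. Of 32 on the list 29 passed the low-count filter, and Psrc1, Ptprv and Trp73 did not. In edgeR 0 of 29 were called. DESeq2 called 1 and limma-voom 0. At an unadjusted p under 0.05 in edgeR stood 3, all lower, Plk2 and Pmaip1 among them, which were also the 3 whose groups did not overlap. Over all genes 7.59% were lower past that limit and 9.42% were lower without overlap, so 3 of 29 is near the share of all genes. Over the list the log2 fold changes had a median of −0.085, with 18 lower and 11 higher means.

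Plk2, a stress-responsive polo-like kinase, had 8.10, 5.71 and 5.07 CPM in Cd44 KO livers, against 10.1, 9.86 and 15.4 CPM in wild-type livers (−0.91 ± 0.26, adjusted p = 0.237). Pmaip1, which encodes the BH3-only protein NOXA, was at 1.33, 1.152 and 1.10 CPM in Cd44 KO and 2.94, 1.89 and 2.39 CPM in wild-type livers (−1.02 ± 0.30, adjusted p = 0.248). A wide spread was also seen in Eda2r, a death receptor of the TNF receptor family. Eda2r reached 6.11 CPM in wild-type mouse 3, against 0.82 to 1.70 CPM in the Cd44 KO mice and 0.59 and 1.85 CPM in wild-type mice 2 and 1 (log2 fold change −1.30 ± 0.77, adjusted p = 0.544), and its log2 fold change was −0.078 without wild-type mouse 3. Zmat3, a zinc finger RNA-binding protein, stood at 16.4 to 16.5 CPM in the Cd44 KO mice, against 16.5, 13.2 and 28.4 CPM in wild-type mice 1, 2 and 3 (log2 fold change −0.24 ± 0.26, adjusted p = 0.777), with 0.14 without wild-type mouse 3. Both genes thus had their highest value in wild-type mouse 3, as Phlda3 did. Cdip1 (log2 fold change 0.24 ± 0.16, adjusted p = 0.593) and Tigar (0.17 ± 0.15, adjusted p = 0.709) had higher means in Cd44 KO livers, with groups that overlapped. The exons of Cdip1 overlap those of Hmox2 on the other strand.

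The genes that most resembled Cdkn1a across the 6 livers are given by a fixed rule, as a description. Likeness was the root-mean-square difference between the log2 deviations of each gene from its own mean, over 6 livers and 11314 protein-coding genes with a mean log2 CPM of at least 1. The 5 nearest were Dhrs9, a retinol and steroid dehydrogenase (0.42), Serpina7, the thyroxine-binding globulin (0.43), Acot2, a mitochondrial acyl-CoA thioesterase (0.47), Chka, choline kinase alpha (0.49), and Slc25a30, a mitochondrial carrier (0.50). Acot2 shows the shared shape, with 50.1, 89.5 and 83.4 CPM in Cd44 KO mice 1, 2 and 3, against 46.2, 21.3 and 97.7 CPM in wild-type mice 1, 2 and 3. Among p53 targets the nearest was Trp53inp1, a p53-induced nuclear protein, at rank 15 of those genes with a difference of 0.60, followed by Bbc3 at rank 57. Trp53inp1 had 70.0, 214 and 212 CPM in Cd44 KO livers, against 134, 95.9 and 257 CPM in wild-type livers (log2 fold change 0.02 ± 0.51, adjusted p = 0.991). Of the other members Btg2 ranked 501, Mdm2 1065, Gadd45a 1154, Ccng1 1275, Trp53 2444, Bax 2841, Gdf15 4711 and Phlda3 10468, a wide range of likeness.

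Among the regulators of p53, the checkpoint kinase genes Chek1 and Chek2 had the smallest p values. Of 12 regulators 11 were tested, 0 were called in edgeR or limma-voom and 1 in DESeq2. At an unadjusted p under 0.05 in edgeR 2 were lower, where 7.59% of all genes were, and the median log2 fold change was 0.0015. Chek2, the kinase that phosphorylates p53 after double-strand breaks, had 0.66, 1.403 and 1.10 CPM in Cd44 KO livers, against 2.12, 2.87 and 5.45 CPM in wild-type livers (−1.70 ± 0.45, adjusted p = 0.222 in edgeR and 0.0402 in DESeq2), and its log2 fold change was −1.19 without wild-type mouse 3. Chek1, the kinase downstream of ATR, was at 0.46, 0.75 and 0.69 CPM in Cd44 KO and 1.74, 0.78 and 1.78 CPM in wild-type livers (−1.18 ± 0.44, adjusted p = 0.327). Chek1 transcription is known to follow the cell cycle. The groups did not overlap in the other direction for 3 regulators, where 8.81% of all genes were higher without overlap. They were Mdm4, the MDM2 partner that masks the p53 activation domain (61.7, 66.5 and 70.3 CPM in Cd44 KO, against 60.2, 59.1 and 54.0 CPM in wild-type livers; adjusted p = 0.521), Atr (24.4, 24.6 and 24.4 CPM in Cd44 KO, against 19.2, 22.5 and 22.5 CPM in wild-type livers; adjusted p = 0.566), and the acetyltransferase gene Kat5 (adjusted p = 0.590). Kat5 was chosen after its values were seen, and its exons overlap those of Rnaseh2c on the other strand. Cdkn2a, the ARF and p16 locus, stayed at or below 0.71 CPM in every liver and was not tested.

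Of the 11 Bcl-2 family genes, the partners and opponents of BAX and PUMA, all were tested, 0 were called by edgeR, DESeq2 or limma-voom, and 1 was lower at an unadjusted p under 0.05 in edgeR, where 7.59% of all genes were. That gene was Bcl2l1, which encodes the survival protein BCL-XL, at 28.1, 31.9 and 21.9 CPM in Cd44 KO livers, against 53.03, 28.0 and 50.03 CPM in wild-type livers (−0.68 ± 0.25, adjusted p = 0.331). Like Btg2, it was low in wild-type mouse 2. Bid, with the next smallest unadjusted p in edgeR (0.0935), had a higher mean in Cd44 KO livers (log2 fold change 0.30 ± 0.16, adjusted p = 0.487). The exons of Bid overlap those of Bcl2l13 on the other strand. The BH3-only gene Bmf had 2.79, 3.21 and 1.58 CPM in Cd44 KO livers, against 2.01, 3.92 and 10.0 CPM in wild-type livers (log2 fold change −1.07 ± 0.58, adjusted p = 0.506), and its log2 fold change was −0.18 without wild-type mouse 3. Groups did not overlap for Bok, lower in Cd44 KO (adjusted p = 0.528), or for Hrk, higher in Cd44 KO at 1.85 to 2.47 CPM, against 0.25 to 1.83 CPM in wild-type livers (adjusted p = 0.575). The log2 fold change of Hrk was 0.86, and 0.35 without wild-type mouse 3. Over all genes 9.42% were lower and 8.81% higher without overlap. The median log2 fold change of the family was −0.24.

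Of 9 paralogs of the members, 8 were tested and 0 were called in edgeR, with 0 at an unadjusted p under 0.05 and none called by DESeq2 or limma-voom. Gadd45b, a stress gene induced by NF-kB, had 6.04, 5.56 and 6.72 CPM in Cd44 KO livers, against 13.5, 6.53 and 7.80 CPM in wild-type livers (−0.61 ± 0.29, adjusted p = 0.426). Phlda1 had 51.0, 22.4 and 73.0 CPM in Cd44 KO livers, against 42.5, 14.2 and 14.8 CPM in wild-type livers (1.03 ± 0.57, adjusted p = 0.519). Phlda1 thus leaned the other way from Phlda3, with a difference inside its own spread. Cdkn1c, which encodes the CDK inhibitor p57, was at 2.19, 2.55 and 2.88 CPM in Cd44 KO and 2.94, 3.52 and 4.08 CPM in wild-type livers without overlap (−0.47 ± 0.25, adjusted p = 0.502).

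Genes of the ATF4 stress response, set beside Gdf15 and Gadd45a because ATF4 also drives both, varied from mouse to mouse. All 7 were tested, 0 were called in edgeR, DESeq2 or limma-voom, and 0 had an unadjusted p under 0.05 in edgeR. Trib3, a pseudokinase, had 27.9, 224 and 170 CPM in Cd44 KO livers, against 36.5, 40.3 and 120 CPM in wild-type livers (1.10 ± 0.80, adjusted p = 0.643). Atf3, a stress transcription factor, was at 11.3, 155 and 108 CPM in Cd44 KO and 45.2, 8.81 and 51.7 CPM in wild-type livers (1.38 ± 1.02, adjusted p = 0.653). Ddit3, or CHOP, had 17.4, 75.8 and 46.7 CPM in Cd44 KO livers, against 21.2, 18.9 and 30.0 CPM in wild-type livers (1.00 ± 0.49, adjusted p = 0.466). Cd44 KO mouse 2 was the highest for all 3, as for Gdf15 and Gadd45a, and Cd44 KO mouse 1 the lowest for Trib3 and Ddit3. Atf4 was also highest in Cd44 KO mouse 2. The rest of the list differed: Asns was lowest in that mouse (5.41 CPM), Chac1 was highest in wild-type mouse 1 and Fgf21 in wild-type mouse 3. Without Cd44 KO mouse 2 the log2 fold change was 0.59 for Trib3, 0.76 for Atf3 and 0.46 for Ddit3. Without wild-type mouse 3 it was 1.88 for Trib3, 1.75 for Atf3 and 1.22 for Ddit3. Fgf21, a hepatokine, was likewise lowest in Cd44 KO mouse 1, at 16.3, 77.0 and 24.0 CPM in Cd44 KO and 64.7, 49.0 and 82.5 CPM in wild-type livers (log2 fold change −0.74 ± 0.56, adjusted p = 0.657, and −1.70 without Cd44 KO mouse 2). Chac1, a glutathione-degrading enzyme, was at 2.59, 7.16 and 3.29 CPM in Cd44 KO and 17.3, 5.22 and 7.54 CPM in wild-type livers (−1.19 ± 0.54, adjusted p = 0.420, and −0.54 without wild-type mouse 1).

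Proliferation genes and macrophage markers had lower means in Cd44 KO livers, without passing edgeR's threshold. Of 12 proliferation genes 10 were lower at an unadjusted p under 0.05 in edgeR, where 7.59% of all genes were. Of the 12, 0 were called in edgeR or limma-voom, while DESeq2 called 6, where it called 2.33% of all genes. That count of 10 was 6 without wild-type mouse 3 and 5 without Cd44 KO mouse 1 or 3, and the median of the 12 log2 fold changes, −1.97, was −1.20 without wild-type mouse 3. Their median log2 level relative to the mean of all mice was −0.78, −0.21 and −1.30 in Cd44 KO mice 1, 2 and 3, and 0.79, −0.22 and 1.81 in wild-type mice 1, 2 and 3. Wild-type mouse 3, the highest in proliferation genes, was the highest for 5 of the 10 members, Cdkn1a and Phlda3 among them. It was also the highest for 23.6% of all genes tested. In the other mice Cdkn1a had another order: it was at 60.7 CPM in Cd44 KO mouse 3, which had the lowest proliferation median. Its lowest value, 8.94 CPM, was in wild-type mouse 2. Of the 7 macrophage markers, all with lower means in Cd44 KO, edgeR and limma-voom called 0 and DESeq2 called 5. At an unadjusted p under 0.05 in edgeR stood 6, with 5 without wild-type mouse 3. The share of all genes past that limit without a mouse is not given here, so the counts without a mouse cannot be set against it. The macrophage markers summed to between 259 and 294 CPM in Cd44 KO livers and to 817, 326 and 750 CPM in wild-type mice 1, 2 and 3. Wild-type mouse 2 was the lowest of its group here. That mouse was also the lowest of the 6 livers for 4 of the 10 members and for 17.9% of all genes tested. In bulk liver, fewer cells of a type and less RNA per cell cannot be told apart.

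Summed levels of the other marker lists overlapped between genotypes for neutrophil genes (2.61 to 6.04 CPM in Cd44 KO, 4.57 to 8.31 CPM in wild-type livers), lymphocyte genes (1.86 to 7.96 CPM in Cd44 KO, 2.04 to 10.6 CPM in wild-type livers), stellate cell genes (363 to 447 CPM in Cd44 KO, 405 to 606 CPM in wild-type livers) and endothelial genes (169 to 246 CPM in Cd44 KO, 138 to 313 CPM in wild-type livers). Of the 6 stellate cell genes edgeR and limma-voom called 0 and DESeq2 called Col3a1 lower (adjusted p = 0.0196). At an unadjusted p under 0.05 in edgeR stood 3, all lower, the collagen genes Col1a1 and Col3a1 and the receptor gene Pdgfrb. Of the 6, 2 were lower without overlap. Over all genes 7.59% were lower past that limit, 9.42% were lower without overlap and DESeq2 called 2.33%. The 5 cholangiocyte markers summed to 8.62 to 11.0 CPM in Cd44 KO and 13.3 to 17.1 CPM in wild-type livers without overlap, with 0 of 5 at an unadjusted p under 0.05. No listed marker was at 0 in all 6 livers. The part of proliferation or of cell composition in the values of the 10 genes was not tested.

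**Figure D4:**
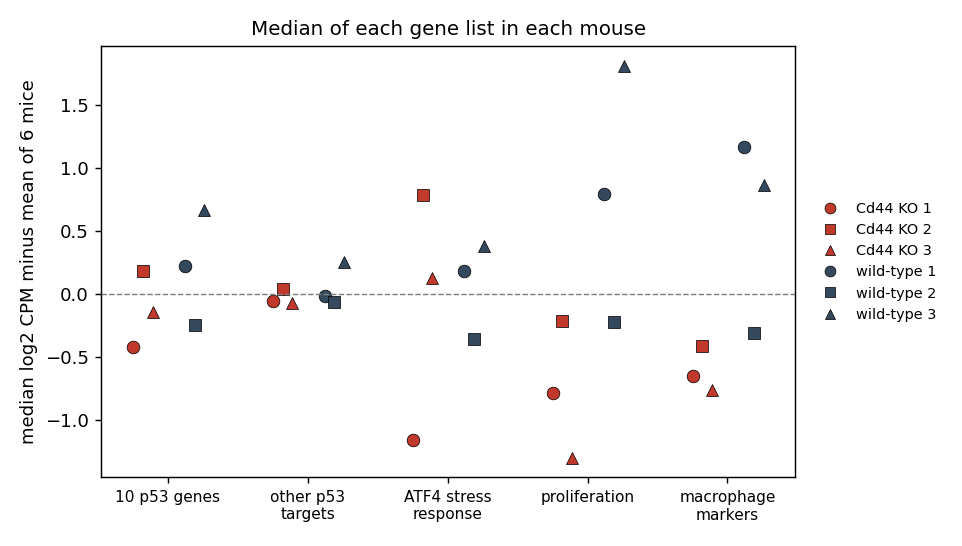
Median log2 level of 5 gene lists in each mouse, relative to the mean of the 6 mice (red, Cd44 KO; dark, wild-type; symbols, mouse number). The 10 p53 genes spread from −0.42 to 0.66 with both genotypes mixed, wild-type mouse 3 is the highest for p53 genes and proliferation genes, and the macrophage markers of the 3 Cd44 KO mice lie below those of all wild-type mice.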

How the data were processed

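Reads per Ensembl gene were deposited by the authors as raw counts, unnormalised, with a column for each mouse. The submitters' processing notes name GRCm38.p6, featureCounts 1.5.0-p3, HISAT2 2.0.5 and StringTie 1.3.3b; the annotation release, strand setting and handling of multi-mapping reads were not given in the sources used here. Random-hexamer priming with no strand-marking step is described per the labels' protocols, so reads of overlapping genes cannot be separated. Of 54682 rows, 54495 matched GENCODE M21; 150 unnamed rows (0.273% to 0.509% of counts) were left out.

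Genotype was tested in R 4.3.3 with edgeR 4.0.16 (filterByExpr, TMM, robust quasi-likelihood F test, Benjamini-Hochberg over 14145 genes, threshold 0.05). An SE is the absolute log2 fold change over √F. The fit was first tested on simulated data in which every gene had the same biological spread, so that trial does not cover genes of wide spread. Alternatives were limma 3.58.1 (voom), DESeq2 1.42.0, RLE scaling, other filters, protein-coding genes alone, a non-robust fit, mouse number as a block, and leaving out each mouse. Mice were the replicates, as the labels name separate mice; an exact permutation test of 3 against 3 cannot go below 0.1. At these depths a count of 0 allows up to 3 counts, 0.155 to 0.194 CPM, counting error only. Per-mouse log2 levels used a prior count of 2.

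The members and lists were chosen with earlier results of these data known. Named were the 10 members, Cd44, genes among the up to 6 smallest p in each list (10 for other p53 targets), and the 5 genes nearest to Cdkn1a. Zmat3, Eda2r, Plk2, Pmaip1, Cdip1 and Tigar fall under that rule, while Trp53inp1, Asns, Kat5 and Cdkn2a were added after their values were seen. One gene of the list of other p53 targets is counted in that list but is not reported here. Counts of the proliferation, macrophage and stellate lists without each mouse were added after seeing the data.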

Additional observations from a re-analysis of the deposited data

How the results depend on the processing

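None of the 10 genes was called under any of the 14 alternatives to the edgeR fit or at an adjusted p under 0.1. At an unadjusted p under 0.05, 1 was past the limit in edgeR (Bax, lower), but that count was not stable: it was 0 lower with the block, with limma-voom and without Cd44 KO mouse 1, Cd44 KO mouse 3 or wild-type mouse 3, 2 with the non-robust fit, 3 without wild-type mouse 2 and 4 without Cd44 KO mouse 2, and 1 was higher without wild-type mouse 3. The share of all genes past that limit under each alternative is not given here, so these counts cannot be set against it. The 4 lower genes Mdm2, Btg2, Bax and Phlda3 kept their sign under all 14. The log2 fold change of Cdkn1a was 0.20 with mouse number as a block and 0.24 with limma-voom, and that of Trp53inp1 −0.031 and −0.018; the cause was not tested. Leaving out 1 mouse at a time gave ranges of −0.061 to 0.16 for Trp53, −0.50 to 0.054 for Ccng1, −0.53 to 0.76 for Cdkn1a, −0.23 to 1.33 for Gadd45a, −0.13 to 0.88 for Bbc3, −1.02 to 0.19 for Gdf15, −0.23 to 0.52 for Trp53inp1 and −0.44 to 0.14 for Zmat3, and −0.40 to −0.052 for the median of the 10. Over all genes edgeR called 2, against 6 with no low-count filter, 1 with the mouse number as a block, 330 with DESeq2, 0 with limma-voom (Cd44 adjusted p = 0.280) and 0 to 151 without 1 mouse. Over the 5 lists of p53-related genes beside the members it called 0, against 2 with DESeq2 (Chek2 among them) and 0 to 1 without 1 mouse. Same-numbered mice gave an r of −0.0175 to −0.0100 over all genes tested, and different-numbered mice −0.0649 to 0.0789. With 3 mice a genotype these values show no pairing by number but cannot exclude it. The block changed no call among the 10. With 3 mice a genotype, the intervals of Cdkn1a, Gadd45a, Btg2 and Phlda3 span several fold.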
